A study of Homo sapiens with 6 samples.

Results

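The genes described here encode 10 antiviral restriction factors, host proteins that block a step of virus replication inside the cell: *MX1*, *MX2*, *RSAD2*, *BST2*, *SAMHD1*, *SAMD9*, *SAMD9L*, *ISG20*, *SLFN5* and *SLFN11*. They were taken by gene symbol from a table of 22807 genes, and each of the 10 symbols had 1 row. The established HER2+ breast cancer line MDA-MB-453 served as the model, and its RNA was sequenced in 6 libraries. In 3 libraries, labelled DUSP6 KD, the cells had received siRNA against *DUSP6*, the phosphatase that inactivates the kinase ERK, and in 3 libraries, labelled WT, they had received scrambled siRNA. The cells were otherwise unmodified and all were transfected with siRNA, so untransfected cells are not among the groups. Each group was made with several different siRNAs, and the labels do not say which of them a library received. The spread within a group therefore holds the differences between siRNAs as well as between cultures. The question addressed was how the RNA levels of these genes differed after *DUSP6* knockdown.

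Restriction factors form a ready-made defense that acts on the viral particle, its genome or its exit from the cell. Many of their genes are switched on by interferon, which signals through a complex that holds STAT2 and IRF9 to a promoter element called the interferon-stimulated response element. In epithelial cells most of them are kept low until that signal or a sensor of foreign nucleic acid is triggered, whereas tetherin, the product of *BST2*, is also made in unstimulated cells of several tissues.

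Values are normalized read counts on a linear scale, with 1 read worth between 0.0121 and 0.0202 in the different libraries, which held between 45546981 and 85729785 reads. Tests were run with limma on log2(value + 1) for the 12862 genes whose mean value reached 1, and log2 fold changes are given on that scale, which makes the changes of genes with low values smaller. The targeted gene fell in all 3 libraries with *DUSP6* siRNA. Its value lay between 110 and 209 with scrambled siRNA and between 24.5 and 39.4 with *DUSP6* siRNA, which gave -2.05 ± 0.25 (SE) as log2 fold change in limma (adjusted p = 3.09e-04). Genes that mark the line were at high levels in every library, with the sum of *ERBB2*, *FOXA1*, *EPCAM*, *KRT8*, *KRT18* and *KRT19* between 3035 and 4091 with scrambled siRNA and between 2049 and 2191 with *DUSP6* siRNA. Of these 6 markers 5 were lower, beside 24.7% of all genes tested, and 1, *EPCAM*, was not called. Of 10 markers of leukocytes, fibroblasts and endothelium, 9 were in the table, and all but the collagen gene *COL1A1* summed to between 5.03 and 6.19 with scrambled siRNA and between 3.91 and 5.99 with *DUSP6* siRNA. *COL1A1* itself rose from a mean of 92.2 to 173 (log2 fold change 0.90). The part of these shifts in the results below was not tested.

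Of the 10 genes, 8 passed the filter and were tested, and 6 of them were called higher after *DUSP6* knockdown (adjusted p under 0.05), beside 19.7% of all genes tested that were higher. These were *RSAD2*, *SAMD9*, *SAMHD1*, *BST2*, *MX1* and *ISG20*. *MX1* and *SAMD9* passed the filter only through the libraries with *DUSP6* siRNA, as their means with scrambled siRNA were 0.571 and 0.731. With no filter both were called higher too. The 2 Schlafen genes, *SLFN5* and *SLFN11*, were not called in either direction. *MX2* and *SAMD9L* were too low for the filter, but also had a higher value in every library with *DUSP6* siRNA than in any with scrambled siRNA. Such separation was thus seen in 8 of the 10 genes, beside 21.6% of all genes in the table and 26.7% of all genes tested. The median log2 fold change was 1.38 over the 8 tested genes and -0.01 over all genes tested. The 10 genes and the lists compared below were chosen with earlier results of these data known. The shares of all genes are thus given for scale and are not a test of a list.

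**Figure D1:**
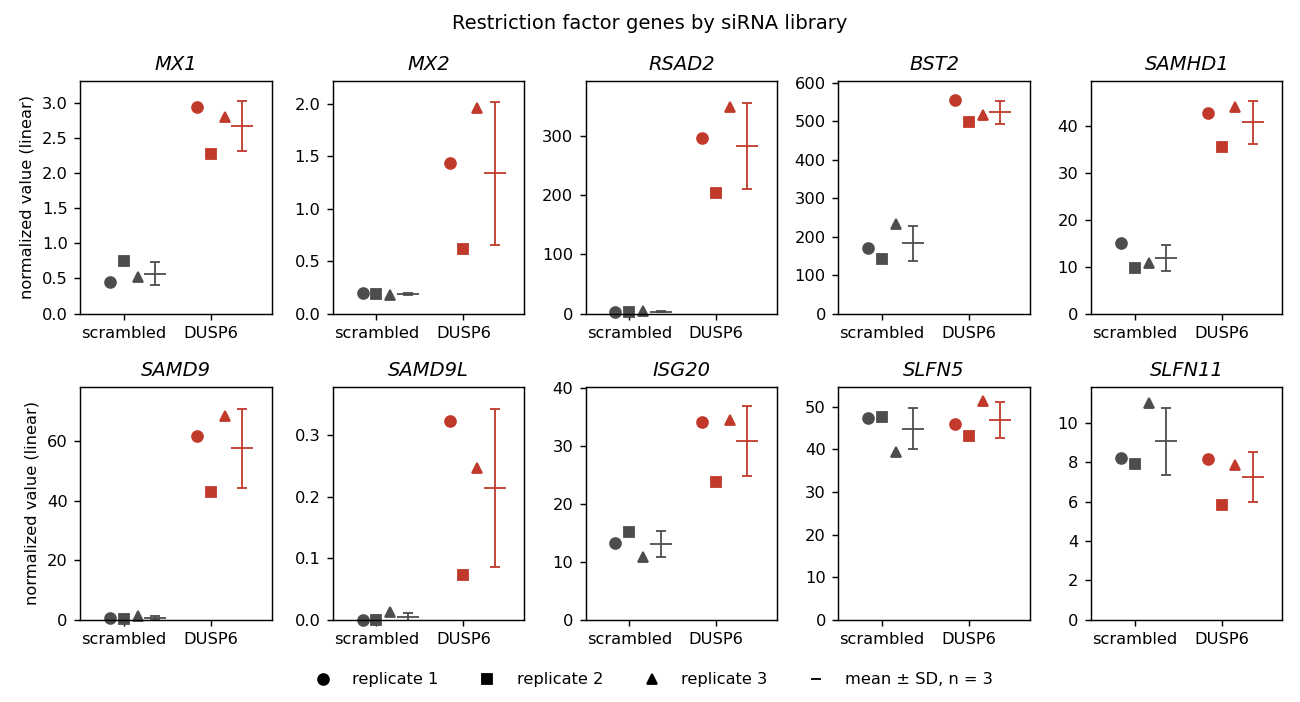
Normalized value (linear scale, from 0 in every panel) of each of the 10 restriction factor genes in the 6 libraries, with 1 point per library, the symbol giving the replicate, and mean ± SD (n = 3) beside the points. The groups are separate in 8 panels and overlap in those of SLFN5 and SLFN11.

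Upstream sequences of 5 of the 6 higher genes are shown because they hold the core of the interferon-stimulated response element. RefSeq promoter windows on GRCh38.p14, from 250 bases before to 50 bases after a transcript start, were searched on both strands for GAAA, any 2 bases, and GAAA again. Of 35116 windows of all genes, 1255 (3.57%) held it, and so did 6 of the 11 windows of these genes. A window was at hand for 8 of the 10 genes, all but *MX2* and *SLFN5*. At least 1 window with the letters was found in 5 of these 8 genes and in 1195 of the 27305 genes with a window (4.38%). Each sequence below is written 5′ to 3′ in the direction of the gene, with the matching letters in capitals and flanking bases in lower case.
RSAD2, chr2:6877617-6877656, plus strand: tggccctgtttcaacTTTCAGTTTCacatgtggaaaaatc
SAMD9, chr7:93118091-93118130, minus strand: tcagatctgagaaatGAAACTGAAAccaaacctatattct
BST2, chr19:17405730-17405775, minus strand: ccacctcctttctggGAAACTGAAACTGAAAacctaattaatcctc
ISG20, chr15:88638932-88638971, plus strand: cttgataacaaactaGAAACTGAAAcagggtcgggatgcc
MX1, chr21:41431839-41431878, plus strand: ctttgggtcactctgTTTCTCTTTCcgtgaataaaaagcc

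In *RSAD2* and *MX1* the match shown lies on the opposite strand and is written as its reverse complement, TTTC, any 2 bases, and TTTC. Another window of *MX1* held a further match, on the strand of the gene and 12 bases after a transcript start, which is not shown. The match of *BST2* is a pair of overlapping copies that share 4 bases. The windows of *SAMHD1*, *SAMD9L* and *SLFN11* did not hold these letters. Another element, TTCNNNGAA, the core of the gamma-activated site, was in 2689 of all windows (7.66%) and in 3 of the 11 windows here, of *BST2*, *MX1* and *SLFN11*. These matches describe the sequence, and binding was not measured.

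*RSAD2* had the largest change among the 10 genes. It encodes viperin, a radical SAM enzyme that converts CTP into a chain terminator of viral RNA synthesis. *RSAD2* (Entrez gene 91543) lies on chromosome 2 from 6865885 to 6898239, in GRCh38 as are all positions given here. Its value was 2.98, 2.41 and 4.39 in the 3 libraries with scrambled siRNA and 297, 204 and 348 in those with *DUSP6* siRNA. The lowest library with *DUSP6* siRNA was thus far above the highest with scrambled siRNA. The mean with *DUSP6* siRNA was 86.8 times that with scrambled siRNA (283 ± 73.2 and 3.26 ± 1.02, SD, n = 3 each), and the log2 fold change was 6.05 (95% confidence interval 5.56 to 6.54, limma adjusted p = 4.27e-07). Counted from the largest increase *RSAD2* ranked 8 among the 12862 genes tested. *CMPK2*, which encodes a nucleotide kinase and overlaps *RSAD2* at its start, rose from a mean of 0.374 to 35.5 (log2 fold change 4.70, limma adjusted p = 2.00e-06). It passed the filter only through the libraries with *DUSP6* siRNA. *CMPK2* and *RSAD2* share 6.20% of the exon sequence of *RSAD2*. The counts of both genes may thus be affected for reads from that part, which was not tested. The nearest gene on that side that does not overlap *RSAD2* is the long noncoding RNA gene *NRIR*, 25421 bases away. *NRIR* had 1 read in all 3 libraries with scrambled siRNA together and 35, 31 and 39 reads with *DUSP6* siRNA. Another 7 radical SAM enzyme genes, which act in metabolism and in the modification of tRNA, were tested and not called, with the median of the list of 8 genes, *CMPK2* included, at 0.09.

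*MX1* and *MX2* encode dynamin-like GTPases that bind viral nucleocapsids. MxA, from *MX1*, acts against influenza and many other RNA viruses, and MxB, from *MX2*, against HIV-1 and herpesviruses. The genes are neighbors on chromosome 21, *MX2* (Entrez gene 4600) from 41362027 to 41409393 and *MX1* (Entrez gene 4599) from 41420558 to 41459214, with 11165 bases between them. The value of *MX1* was 0.446, 0.747 and 0.518 with scrambled siRNA and 2.93, 2.26 and 2.80 with *DUSP6* siRNA. Although the groups were well apart, both were near the bottom of the expression range. The mean with *DUSP6* siRNA was 4.67 times that with scrambled siRNA (2.66 ± 0.354 and 0.571 ± 0.157, SD, n = 3 each), and the log2 fold change was 1.22 (95% confidence interval 0.94 to 1.51, limma adjusted p = 1.27e-04). The size of this change depended on the added constant, with 2.06 for a pseudocount of 0.1 and 2.27 for edgeR on the reads.

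*MX2* rested on few reads, with 13, 10 and 15 in the libraries with scrambled siRNA and 71, 50 and 127 in those with *DUSP6* siRNA. Its values were 0.193, 0.192 and 0.181 with scrambled siRNA and 1.44, 0.611 and 1.96 with *DUSP6* siRNA. The scrambled libraries were nearly equal, and those with *DUSP6* siRNA spread over a 3-fold range above them. The ratio of the pooled read rates was 6.74 (exact 95% interval 4.78 to 9.75, which covers counting error only). With no filter on low values limma called the gene (log2 fold change 0.93, adjusted p = 0.0142), and so did edgeR's quasi-likelihood test on genes with at least 10 reads (2.81, adjusted p = 8.17e-04). The library-wise log2 ratio of *MX1* to *MX2* averaged 0.40 ± 0.14 in the scrambled libraries and 0.69 ± 0.33 in the others (SD, n = 3 each). This difference of 0.29 was within the spread between libraries (two-sided exact permutation test, p = 0.3, adjusted p = 0.3 over 3 pairs) and became -0.12 with a pseudocount of 0.1. Of the neighbor on the far side of *MX1*, the protease gene *TMPRSS2*, the mean fell from 18.1 to 11.5 (log2 fold change -0.62, limma adjusted p = 0.0112). *TMPRSS2* shares 3.13% of the exon sequence of *MX1*.

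Relatives of MX in the dynamin superfamily were called about as often as genes in general. The 10 tested genes were of the dynamin, OPA1, mitofusin, guanylate-binding protein and atlastin families. Of these, 2 were higher, 3 were lower and 5 were not called, beside 19.7% higher and 24.7% lower of all genes tested. Their median log2 fold change was -0.06. The change of greatest size was a fall of *GBP2*, a guanylate-binding protein induced by interferon gamma, from a mean of 17.6 to 2.61 (log2 fold change -2.30, limma adjusted p = 4.85e-04). Under the filter, *GBP1* went the other way, from a mean of 0.111 to 0.419 without overlap, and *GBP3* from 0.242 to 0.461 with overlap. *ATL2*, an endoplasmic reticulum atlastin, had a log2 fold change of 0.40 and *DNM1*, a dynamin of endocytosis, one of 0.39. *DNM1*, with means of 0.902 and 1.51, passed the filter only through the libraries with *DUSP6* siRNA.

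*BST2* encodes tetherin, a membrane protein that holds budding virions on the cell surface. It was by far the most abundant of the 10 transcripts with either siRNA. *BST2* (Entrez gene 684) lies on chromosome 19 from 17402939 to 17405630. Its value was 171, 143 and 233 with scrambled siRNA and 554, 497 and 516 with *DUSP6* siRNA, and the groups did not overlap. The mean with *DUSP6* siRNA was 2.87 times that with scrambled siRNA (522 ± 29.0 and 182 ± 45.9, SD, n = 3 each), and the log2 fold change was 1.54 (95% confidence interval 1.18 to 1.90, limma adjusted p = 1.30e-04). *BISPR*, a noncoding RNA gene that lies 56 bases away, rose from a mean of 3.67 to 19.8 (log2 fold change 2.16, limma adjusted p = 4.88e-06). The other neighbor, the endothelial gene *PLVAP*, was under the filter in both groups, with means of 0.186 and 0.781. It had 6, 10 and 23 reads with scrambled siRNA and 40, 61 and 51 with *DUSP6* siRNA, and its values did not overlap.

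*SAMHD1* encodes a dNTP triphosphohydrolase that starves reverse transcription of its substrates in non-dividing cells. *SAMHD1* (Entrez gene 25939) lies on chromosome 20 from 36889773 to 36951708. Its value was 15.1, 9.73 and 10.7 with scrambled siRNA and 42.7, 35.5 and 44.0 with *DUSP6* siRNA, with no overlap. The mean with *DUSP6* siRNA was 3.43 times that with scrambled siRNA (40.7 ± 4.58 and 11.9 ± 2.84, SD, n = 3 each), and the log2 fold change was 1.71 (95% confidence interval 1.35 to 2.08, limma adjusted p = 7.73e-05). Of its exon sequence 9.86% is shared with *TLDC2*, so the counts of both genes may be affected for reads from that part, which was not tested. *TLDC2* rose as well, from a mean of 2.53 to 9.89 (log2 fold change 1.62). The neighbors *SOGA1* and *RBL1*, the latter encoding the pocket protein p107, were lower, with log2 fold changes of -0.56 and -0.35.

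The enzymes that make dNTPs, which SAMHD1 degrades, and the cyclin-dependent kinases that phosphorylate SAMHD1 mostly moved the other way. Of 14 tested genes of dNTP supply and SAMHD1 regulation, 9 were lower, beside 24.7% of all genes tested, 2 were higher and 3 were not called. *RRM2*, the small subunit of ribonucleotide reductase, fell from a mean of 532 to 171 (log2 fold change -1.60, limma adjusted p = 2.56e-04). *TK1*, thymidine kinase, and *TYMS*, thymidylate synthase, had log2 fold changes of -0.91 and -0.85. *CDK1*, *CDK2* and *CCNA2*, the kinase and cyclin genes of the list, whose products act on SAMHD1 in dividing cells, had log2 fold changes of -0.51, -0.73 and -0.54. The 2 higher genes were *DGUOK* and *RRM2B*, which supply dNTPs to mitochondria and to resting cells, with 0.56 and 0.51.

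*SAMD9* and *SAMD9L* encode large paralogous cytoplasmic proteins that block poxvirus replication and restrain translation and cell growth. They lie side by side on chromosome 7, *SAMD9* (Entrez gene 54809) from 93099518 to 93117979 and *SAMD9L* (Entrez gene 219285) from 93130056 to 93148385, with 12077 bases between them. *SAMD9* had values of 0.491, 0.364 and 1.34 with scrambled siRNA and 61.5, 42.8 and 68.4 with *DUSP6* siRNA. It was thus near the detection limit in one group and clearly present in every library of the other, as 33, 19 and 111 reads beside 3044, 3502 and 4428 reads. The mean with *DUSP6* siRNA was 78.8 times that with scrambled siRNA (57.6 ± 13.2 and 0.731 ± 0.529, SD, n = 3 each), and the log2 fold change was 5.10 (95% confidence interval 4.58 to 5.62, limma adjusted p = 1.53e-06), rank 15 from the largest increase. Scrambled siRNA replicate 3 was the highest of its group, and without it the ratio of the means was 135. The log2 fold change was 6.27 with a pseudocount of 0.1 and 6.26 with edgeR. Together with *RSAD2* it was among the 84 genes called with a log2 fold change above 2, which are 0.653% of those tested.

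*SAMD9L* stayed at the edge of detection. It had 0, 0 and 1 read in the libraries with scrambled siRNA and 16, 6 and 16 reads in those with *DUSP6* siRNA, or values of 0.324, 0.0734 and 0.247 in the latter. All 3 libraries with *DUSP6* siRNA were above all with scrambled siRNA, at a level that remained far below 1. The ratio of the pooled read rates was 39.2, with an exact 95% counting interval of 6.63 to 1590. With no filter limma called the gene at a log2 fold change of 0.27 (adjusted p = 0.0281), and edgeR's quasi-likelihood test on genes with at least 10 reads did so at 4.93 (adjusted p = 0.00343). The library-wise log2 ratio of *SAMD9* to *SAMD9L* averaged 0.74 ± 0.41 in the scrambled libraries and 5.57 ± 0.22 in the others (SD, n = 3 each), and these did not overlap. The difference of 4.83 had p = 0.1 in the exact permutation test (two-sided), which is the minimum for 3 against 3 libraries, and p = 0.3 when adjusted over 3 pairs. On this scale the ratio follows the level of *SAMD9* because *SAMD9L* stays under the added constant. The ratio of the means of *SAMD9*, 78.8, lies inside the counting interval of *SAMD9L*.

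*ISG20* encodes an exonuclease of the DEDD family that degrades single-stranded RNA. *ISG20* (Entrez gene 3669) lies on chromosome 15 from 88635632 to 88656483. Its value was 13.3, 15.1 and 10.7 with scrambled siRNA and 34.1, 23.8 and 34.5 with *DUSP6* siRNA, with no overlap. The mean with *DUSP6* siRNA was 2.36 times that with scrambled siRNA (30.8 ± 6.07 and 13.0 ± 2.18, SD, n = 3 each), and the log2 fold change was 1.17 (95% confidence interval 0.79 to 1.55, limma adjusted p = 7.41e-04). The adjacent paralog *AEN*, a nuclease induced by p53, had a log2 fold change of 0.33 and was not called (limma adjusted p = 0.0916). Of 11 tested DEDD exonucleases other than ISG20, 1 was higher (*REXO1*, 0.40), 2 were lower (*ERI1*, -0.48, and *PARN*, -0.38) and 8 were not called. Among all genes tested, 19.7% were higher and 24.7% lower.

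The Schlafen genes lie on chromosome 17, *SLFN5* (Entrez gene 162394) from 35243072 to 35273655 and *SLFN11* (Entrez gene 91607) from 35350305 to 35373621. SLFN11 cleaves tRNAs, which limits the synthesis of HIV-1 proteins, and in tumor cells it blocks stressed replication forks. SLFN5 is a nuclear member of the family that represses transcription of herpes simplex virus. *SLFN5* had values of 47.4, 47.7 and 39.3 with scrambled siRNA and 45.9, 43.2 and 51.4 with *DUSP6* siRNA. *SLFN11* had 8.24, 7.93 and 11.0 with scrambled siRNA and 8.15, 5.81 and 7.85 with *DUSP6* siRNA. In both genes the groups overlapped. The means of *SLFN5* were 44.8 ± 4.78 and 46.8 ± 4.17 (SD, n = 3 each), and the log2 fold change was 0.06 (95% confidence interval -0.19 to 0.32, limma adjusted p = 0.663). The means of *SLFN11* were 9.05 ± 1.68 and 7.27 ± 1.27 (SD, n = 3 each), and the log2 fold change was -0.28 (95% confidence interval -0.64 to 0.08, limma adjusted p = 0.181). The intervals leave room for modest changes, but their upper ends lie below the lower ends of the intervals of the 6 higher genes. The log2 ratio of *SLFN5* to *SLFN11* differed by 0.35 between the groups (two-sided exact permutation test, p = 0.3, adjusted p = 0.3 over 3 pairs). Of the other Schlafen genes 3 were tested and 1 was lower, beside 24.7% of all genes tested. *SLFN13*, a tRNA nuclease, fell from a mean of 130 to 76.1 (log2 fold change -0.76, limma adjusted p = 3.41e-04), while *SLFN12* and *SLFNL1* had 0.24 and -0.20 and were not called. The remaining neighbors of the 10 genes, *FAM3B*, *RNF144A-AS1*, *CDK6-AS1*, *HEPACAM2*, *HAPLN3* and *SLC35G3*, had a mean of at most 0.122 in either group. At these few reads *RNF144A-AS1*, beside *RSAD2*, had 0, 0 and 0 with scrambled siRNA and 9, 5 and 8 with *DUSP6* siRNA. *HEPACAM2* had 0, 1 and 1 and then 2, 6 and 2. The values of both did not overlap, as in 21.6% of all genes in the table with higher values after knockdown.

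**Figure D2:**
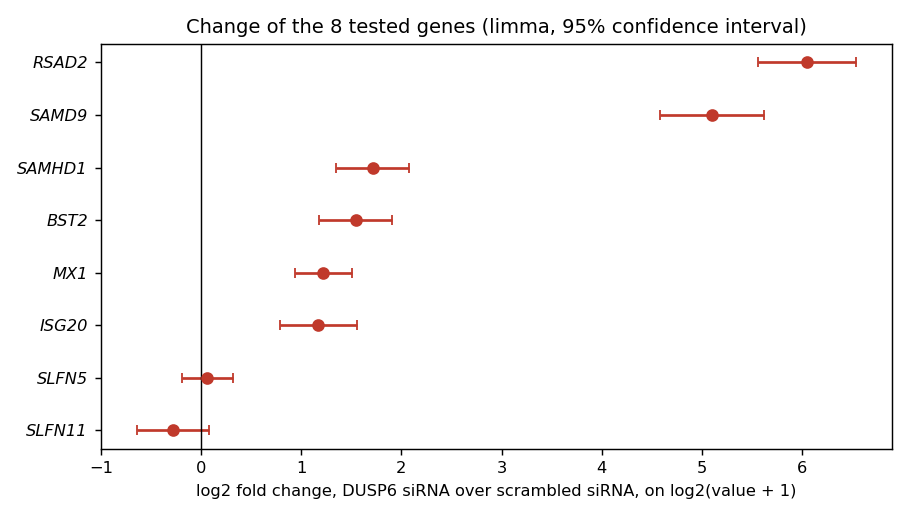
log2 fold change of the 8 tested restriction factor genes on log2(value + 1), DUSP6 siRNA over scrambled siRNA, as limma estimates (points) with 95% confidence intervals (bars). RSAD2 at 6.05 and SAMD9 at 5.10 stand apart from the other 4 higher genes, which lie between 1.17 and 1.71, and the intervals of SLFN5 and SLFN11 include 0.

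Dividing each value by the length of the canonical transcript allowed levels to be set side by side. With scrambled siRNA the mean level per kilobase was highest for *BST2*, at 182, followed by *ISG20* at 8.24, *SLFN5* at 4.24, *SAMHD1* at 2.55 and *SLFN11* at 1.76. Below these came *RSAD2* at 0.956, *MX1* at 0.206, *SAMD9* at 0.107, *MX2* at 0.0553 and *SAMD9L* at 0.000562. Libraries of *SAMHD1* and *SLFN11*, of *MX1* and *SAMD9*, and of *SAMD9* and *MX2* overlapped, so these neighbors in the order were not separate. With *DUSP6* siRNA *BST2* was still first, at 522 per kilobase, followed by *RSAD2* at 83.1. *ISG20* at 19.5, *SAMHD1* at 8.76 and *SAMD9* at 8.46 followed, and only *SAMHD1* and *SAMD9* overlapped among neighbors in this order. *SLFN5* at 4.44 and *SLFN11* at 1.41 now came after these 5 genes and ahead of *MX1* at 0.959, *MX2* at 0.392 and *SAMD9L* at 0.0300.

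Set among the 12347 tested genes that had a transcript length, *RSAD2* went from percentile 10.2 to 94.5 of the level per kilobase and *SAMD9* from 0.445 to 46.2. *BST2* was already at percentile 97.9 and went to 99.6. *MX1*, although called, reached percentile 9.14 from 1.31. *RSAD2* and *SAMD9*, whose means differed by ratios of 86.8 and 78.8, thus ended far apart in level. Since the libraries are of bulk RNA, more cells with a transcript and more RNA per cell cannot be told apart.

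**Figure D3:**
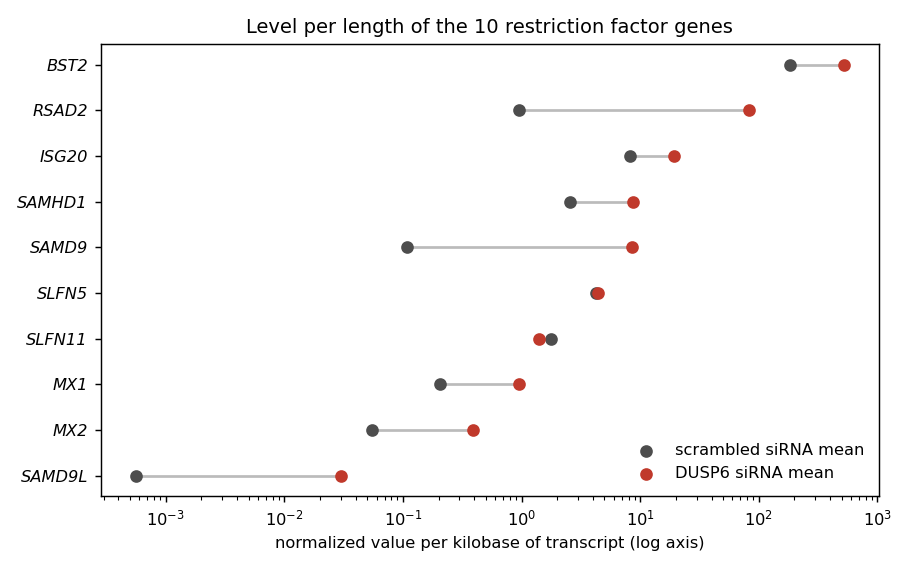
Mean normalized value per kilobase of canonical transcript (log axis) of the 10 restriction factor genes with scrambled siRNA (dark) and DUSP6 siRNA (red), joined by a line for each gene. BST2 is highest with either siRNA, RSAD2 goes from 0.956 to 83.1 and SAMD9 from 0.107 to 8.46, and both points of SLFN5 nearly coincide.

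The libraries of a group were not equal. *DUSP6* siRNA replicate 2 had the lowest value of its group for all 10 genes, whereas it was the lowest of its group for 33.5% of all genes tested and for 17.7% of the genes called higher. For *RSAD2* it had 204 beside 297 and 348, and for *MX2* 0.611 beside 1.44 and 1.96. This was not particular to the 10 genes. Among higher genes of the interferon signaling and other restriction factor lists named below, *IRF7*, *IRF1*, *SHFL*, *LGALS3BP* and *IFITM1* were also lowest there. *IRF9* was not. The same library had the lowest *DUSP6* value, 24.5, and the most reads of its group, 75642792. Among the scrambled libraries replicate 3 was highest for *RSAD2*, *BST2*, *SAMD9*, *SAMD9L* and *SLFN11*, and other replicates were highest for the other 5 genes. Leaving out any single library left 6 genes called higher.

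The genes whose profile over the 6 libraries was nearest to that of each of the 10 genes were found by the root mean square difference of log2(value + 1), with each profile centered on its scrambled mean. For *RSAD2* these were *IFIT3* (difference 0.11) and *IFIT2* (0.14), which encode interferon-induced RNA-binding proteins. *SAMD9* had *CMPK2* (0.31) and *ISG15* (0.34), the latter a ubiquitin-like modifier. *MX1* had *SECTM1* (0.03) and *SPATS2L* (0.08), *BST2* had *B9D1* and *UNC93B1* (0.14 and 0.15), *SAMHD1* had *RGS2* and *PPM1K* (0.10 and 0.10), and *ISG20* had *DHRS2* and *PHF11* (0.12 and 0.13). For the Schlafen genes, which hardly moved, the nearest profiles were those of *OSER1* and *ZNF875* for *SLFN5* and of *MCM3AP-AS1* and *SH3BP2* for *SLFN11*. *MX2* had *GEM* and *PARP4*, and *SAMD9L* had *AGAP9* and *CRYGS*. For *MX2* and *SAMD9L*, which lie near or below the added constant, a near profile says only that another gene moved by a similar small amount on this scale. With scrambled siRNA the means of *MX1*, *SAMD9*, *CMPK2* and *RGS2* were also below the constant, which made their changes smaller. *MX1* went from a mean of 0.571 to 2.66, but *SECTM1* from 27.8 to 65.1. *SAMHD1* went from 11.9 to 40.7, but *RGS2* from 0.531 to 4.21. Near profiles on this scale can thus differ in the ratio of their means.

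The genes of interferon signaling, the pathway known to induce most of the 10 genes, were higher in 10 of 17 cases, beside 19.7% of all genes tested, with 1 lower, beside 24.7%, and 6 not called, and had a median log2 fold change of 0.45. *IRF9*, the DNA-binding subunit of the complex, rose from a mean of 17.2 to 222 (log2 fold change 3.70, limma adjusted p = 1.07e-05). *IRF7*, an amplifier of interferon production, had a log2 fold change of 2.71 and *IRF1*, an activator of many of the same promoters, one of 2.24. *IRF2*, which can repress the response element, was lower, at -0.92. Of 33 other restriction factor genes, 32 were in the table and 26 were tested, with 17 higher, 2 lower and 7 not called, beside the same shares of all genes, and a median log2 fold change of 0.69. *SHFL*, an inhibitor of ribosomal frameshifting, had a log2 fold change of 3.05, *LGALS3BP*, a secreted glycoprotein that limits the infectivity of HIV-1, 2.84, and *IFITM1*, which blocks fusion of viral with cell membranes, 2.53. The 2 lower genes were the RNA helicase gene *MOV10* (-0.44) and the cytidine deaminase gene *APOBEC3D* (-0.39). In these lists *IFITM1* (means 0.296 with scrambled and 6.82 with *DUSP6* siRNA) and *SOCS1* (0.921 and 1.81), both called higher, passed the filter only through the libraries with *DUSP6* siRNA. The added constant makes the log2 fold change of *IFITM1* smaller.

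**Figure D4:**
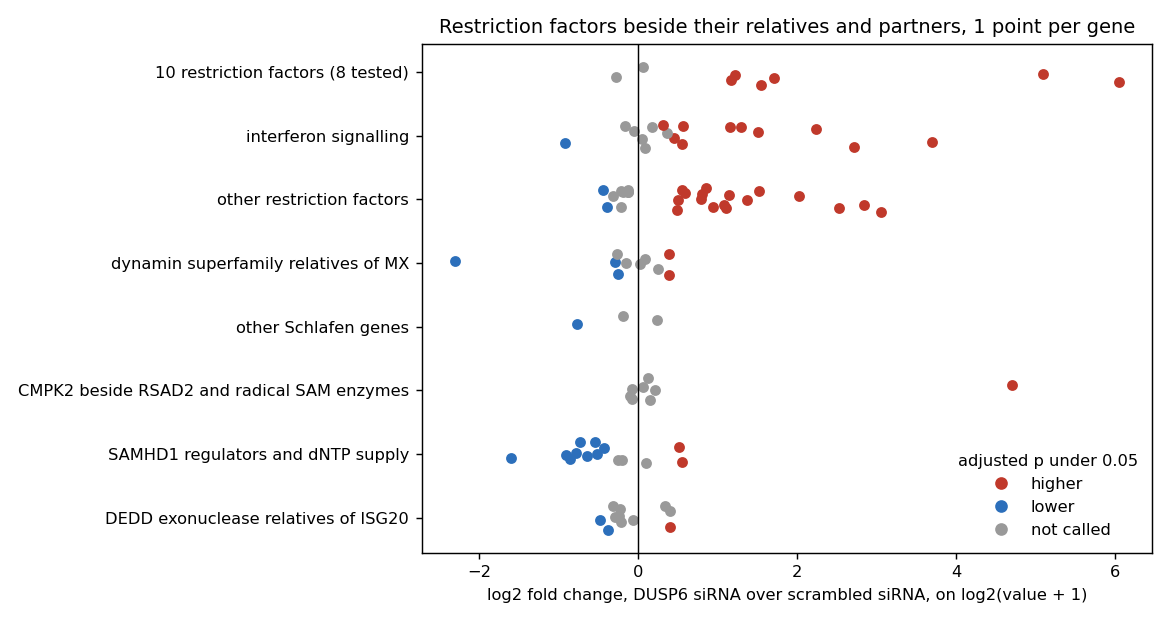
log2 fold change (DUSP6 siRNA over scrambled siRNA, on log2(value + 1)) of every tested gene of 8 lists, with 1 point per gene, red for higher and blue for lower at an adjusted p under 0.05 and grey for not called; vertical scatter within a list carries no value. RSAD2 at 6.05 and SAMD9 at 5.10 lie furthest to the right, followed by CMPK2 at 4.70, and 9 of 14 genes of SAMHD1 regulation and dNTP supply are lower.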

How the data were processed

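RNA of 6 libraries was sequenced with a stranded mRNA kit. With Rsubread the authors aligned reads to hg38 and counted them over RefSeq genes at default settings, which do not use strand, and they deposited 1 normalized signal value per gene and library. The submitters' processing notes also name edgeR and bcl2fastq. Divided by 1 step per library, all deposited values came out as whole reads (tolerance 0.01). The steps carried the TMM scaling of edgeR.

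Groups and replicate numbers came from the labels. No column belonged to other series, and 349 of 22807 rows had no symbol. limma 3.58.1 in R 4.3.3 (eBayes with a trend) was run on log2(value + 1) for genes whose mean value reached 1. P-values were adjusted by Benjamini-Hochberg, and a gene was called where the adjusted p was under 0.05. A quasi-likelihood test with edgeR 4.0.16 on these reads was an alternative, and its use on genes with at least 10 reads, which takes in *MX2* and *SAMD9L*, was chosen after seeing the data. Both were run on simulated counts with 200 changed genes and the same dispersion for every gene. This setting is simpler than these data, so the run was only a check of the tools. Single values were compared by exact permutation, for which p = 0.1 is the smallest possible with 3 libraries against 3. Each group was made with several siRNAs, and the labels do not say whether the libraries come from independent experiments. The p-values thus measure the spread between these libraries, in which siRNAs, cultures and technical differences cannot be told apart. Read intervals (95%) cover counting error only. Replicates differed by more than sampling noise.

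The 10 genes and all lists were chosen with earlier results of these data known, and some genes of the lists are not reported here. Besides the 10 genes and *DUSP6*, the genes named were the nearest gene without overlap on each side and the 2 nearest profiles of each gene. The 3 called genes of each list with the largest absolute change were named as well. *TLDC2* was named for its shared exons. Members of the lists named after their values were seen were *CDK1*, *CDK2*, *CCNA2*, *DGUOK*, *RRM2B*, *IRF2*, *SOCS1*, *MOV10*, *APOBEC3D*, *SLFNL1*, *EPCAM*, *GBP1* and *GBP3*. Levels per kilobase used the length of the canonical GENCODE v44 transcript. Shared exon sequence was also computed from GENCODE exons, not from the RefSeq genes used for counting. Gene positions and promoters came from RefSeq on GRCh38.p14. Alternatives tried were no filter or a minimum mean of 10, a pseudocount of 0.1, quantile normalization, scaling by median of ratios, eBayes with no trend, the replicate number as a block, edgeR, and omission of each library.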

Additional observations from a re-analysis of the deposited data

How the results depend on the processing

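The 6 genes called higher kept that call under every alternative that tested them, with the exception that a minimum mean value of 10 removed *MX1* from the test and left 5. With no filter, and with edgeR on genes with at least 10 reads, 8 of the 10 genes were called higher. Of all genes in these settings, 13.1% were higher with no filter and 17.4% with edgeR. *MX2* then changed by 0.93 on the log2 scale (limma adjusted p = 0.0142) and 2.81 (edgeR adjusted p = 8.17e-04), and 2.18 with a pseudocount of 0.1. *SAMD9L* had 0.27 (limma adjusted p = 0.0281), 4.93 (edgeR adjusted p = 0.00343) and 1.50 with a pseudocount of 0.1. The size of both changes depended on the added constant. The log2 ratio of *MX1* to *MX2* turned to -0.12 with a pseudocount of 0.1. *SLFN5* turned to -0.025 without scrambled siRNA replicate 3 and to -0.0029 without *DUSP6* siRNA replicate 3, neither of them called (limma adjusted p = 0.838 and 0.989). The number of all genes higher was 1639 at a mean value of at least 10, where fewer genes were tested, and 1574 without *DUSP6* siRNA replicate 2.

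Leaving out 1 library at a time gave log2 fold changes of 5.88 to 6.27 for *RSAD2*, 4.95 to 5.33 for *SAMD9*, 1.16 to 1.30 for *MX1*, 0.74 to 1.18 for *MX2*, 0.20 to 0.36 for *SAMD9L* and -0.025 to 0.12 for *SLFN5*, and 1574 to 3183 genes higher. Deviations of same-numbered libraries were hardly correlated, at 0.0050, 0.0868 and -0.0764. With 3 libraries per group this cannot exclude that the replicate numbers pair the libraries. With the replicate block 6 genes were again called higher, with *RSAD2* at 6.05, and 2495 of all genes. The median log2 fold change of all genes was -0.02 when scaled by median of ratios and 0.02 after quantile normalization. Depth limits *SAMD9L* most, for which a single read was found with scrambled siRNA.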
